A study of Mus musculus with 4 samples.

Results

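The mitochondrial chaperones and proteases were followed as a group of 10 nuclear genes, chosen by function out of the 32285 genes of the count tables: Hspd1, Hspe1, Hspa9, Dnaja3, Trap1, Lonp1, Clpp, Afg3l2, Yme1l1 and Oma1. All 10 were in the tables and passed the filter on low counts in every comparison given here. The series holds 4 single-cell libraries of small intestinal epithelium from 25-week-old mice: 2 from mice with the TrnA G5081A point mutation of mitochondrial DNA, at a mutation load of 77% in mutant 1 and 81% in mutant 2, and 2 from wild type mice. Mutant 1 and wild type 1 form set A, counted with Cell Ranger 7.0.0, and mutant 2 and wild type 2, whose titles add that the mice were male, form set B, counted with Cell Ranger 7.1.0. Acute colitis stands in the title of the series, yet the labels of the 4 samples give no such treatment. The labels do not say that the 2 libraries of a genotype came from separate mice, so the p-values reflect library-to-library spread that may be technical.

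Chaperones of the mitochondrial matrix fold proteins after import. Hsp70 (Hspa9), with its J-protein partner Dnaja3, takes up incoming chains, and the Hsp60 barrel (Hspd1) closed by its Hsp10 lid (Hspe1) completes folding, while Trap1 is the mitochondrial member of the Hsp90 family. Lonp1 and Clpp are proteases of the matrix, and Afg3l2, Yme1l1 and Oma1 are proteases of the inner membrane, which remove damaged or unassembled proteins and, in the case of Yme1l1 and Oma1, cut the fusion protein Opa1. Cells with faulty mitochondrial protein synthesis are known to raise genes of this set in what is called the mitochondrial unfolded protein response, and TrnA encodes the alanine transfer RNA of that protein synthesis.

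Per the labels, cells were sorted by stains for CD326, the epithelial marker, and for CD45, CD31 and TER-119. The sums over epithelial cells held 103278547 and 94657062 UMIs (unique molecular identifiers, each standing for a captured RNA molecule) in the mutants and 88343762 and 89510600 UMIs in the wild types, over 29632 cells. Epcam, which encodes CD326, was at 3353 and 2476 CPM in the mutants and 2742 and 2308 CPM in the wild types, where CPM is the UMIs of a gene for every 1000000 UMIs of the same cells. The 8 stromal markers together did not exceed 0.232 CPM in any library, and a cluster of 164 T cells or intraepithelial lymphocytes was left out. Cells were grouped without using the 10 genes, and clusters were named from marker genes as stem-like, cycling-like, enterocyte-like, goblet-like, Paneth-like, enteroendocrine-like and tuft-like, written below without the ending. Stem and cycling cells together are called crypt cells. Any 2 libraries shared 8 to 28 cell barcodes.

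Hspd1 and Hspe1 lie head to head on chromosome 1, and their promoter windows are shown because these genes had nearly the same pattern over cell classes. In GENCODE vM21 coordinates (mm10), Hspd1 runs from 55088243 down to 55077835 on the minus strand and Hspe1 from 55088132 up to 55091307 on the plus strand, so that the 5′ ends of the genes overlap by 112 bases. RefSeq windows (GRCm38.p6, 250 bases before to 50 after a start) were given for 8 of the 10 genes. The Hspe1 window, chr1:55087898-55088197 on the plus strand, shares 285 bases with the second of the 2 Hspd1 windows. It holds 1 match to the heat shock element core GAANNTTC, in capitals. That second Hspd1 window, chr1:55087883-55088182 on the minus strand and not printed here, holds the same site, read there as GAAGGTTC. The first Hspd1 window, chr1:55088194-55088493 on the minus strand, holds 1 match to the NRF1 core GCGCANGCG, in capitals. The Trap1 window, chr16:4077761-4078060 on the minus strand, is shown because it was the only member window with the cyclic AMP response element TGACGTCA, in capitals.
Hspe1: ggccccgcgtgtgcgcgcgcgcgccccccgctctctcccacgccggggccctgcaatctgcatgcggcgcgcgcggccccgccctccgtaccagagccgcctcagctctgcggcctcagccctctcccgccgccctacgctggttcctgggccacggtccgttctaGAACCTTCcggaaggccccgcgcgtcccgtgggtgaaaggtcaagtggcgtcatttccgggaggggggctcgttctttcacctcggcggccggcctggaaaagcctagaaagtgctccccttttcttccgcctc
Hspd1: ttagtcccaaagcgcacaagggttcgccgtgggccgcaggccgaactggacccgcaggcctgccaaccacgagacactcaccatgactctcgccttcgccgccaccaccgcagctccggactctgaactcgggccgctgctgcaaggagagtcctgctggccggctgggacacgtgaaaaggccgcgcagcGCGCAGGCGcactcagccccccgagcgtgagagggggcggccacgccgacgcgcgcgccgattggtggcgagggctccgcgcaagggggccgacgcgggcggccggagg
Trap1: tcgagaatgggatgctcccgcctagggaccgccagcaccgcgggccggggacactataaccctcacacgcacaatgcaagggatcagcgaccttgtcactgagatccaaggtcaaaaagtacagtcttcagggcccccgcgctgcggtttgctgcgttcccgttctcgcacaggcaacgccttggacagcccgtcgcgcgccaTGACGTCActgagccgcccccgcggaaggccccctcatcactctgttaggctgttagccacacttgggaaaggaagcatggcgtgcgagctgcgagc
Counting both strands, the heat shock core occurred in 7.86% of all 32817 windows, the NRF1 core in 6.24% and TGACGTCA in 1.79%. The NRF1 core also occurred in the windows of Oma1 and Dnaja3. The core of the ATF4 and CHOP element, TGATGNAA, which 3.97% of all windows hold, was in none of the windows of the 8 genes. These matches describe letters in a window and say nothing of binding.

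Across cell classes, the chaperones and matrix proteases followed the dividing cells. Hspd1 was highest in cycling cells (1025 ± 163 CPM, SD, n = 4 libraries) and stem cells (848 ± 177), whose ranges overlapped, and both lay above every other class in all 4 libraries. It then fell in the order tuft (411 ± 45.5), goblet (341 ± 37.2), enterocyte (278 ± 46.5), enteroendocrine (243 ± 25.3) and Paneth cells (106 ± 23.5). Of these neighbours only enteroendocrine and Paneth cells had ranges that did not overlap. This order of CPM below the dividing cells depended on the scale: with TMM normalization, which allows for RNA composition, the pairwise log2 ratios of Hspd1 among enterocytes, goblet, Paneth and tuft cells lay between -0.07 and 0.11 and none passed, whereas enteroendocrine cells lay below each of these classes (0.79, SE 0.14, for tuft against enteroendocrine cells; edgeR quasi-likelihood test, adjusted p = 2.45e-05). Between its highest and lowest class in CPM, Paneth cells left out, Hspd1 differed 4.22-fold, Hspe1 4.05-fold, Hspa9 2.76-fold, Trap1 2.64-fold, Lonp1 2.55-fold, Clpp 2.28-fold and Dnaja3 1.89-fold.

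**Figure D1:**
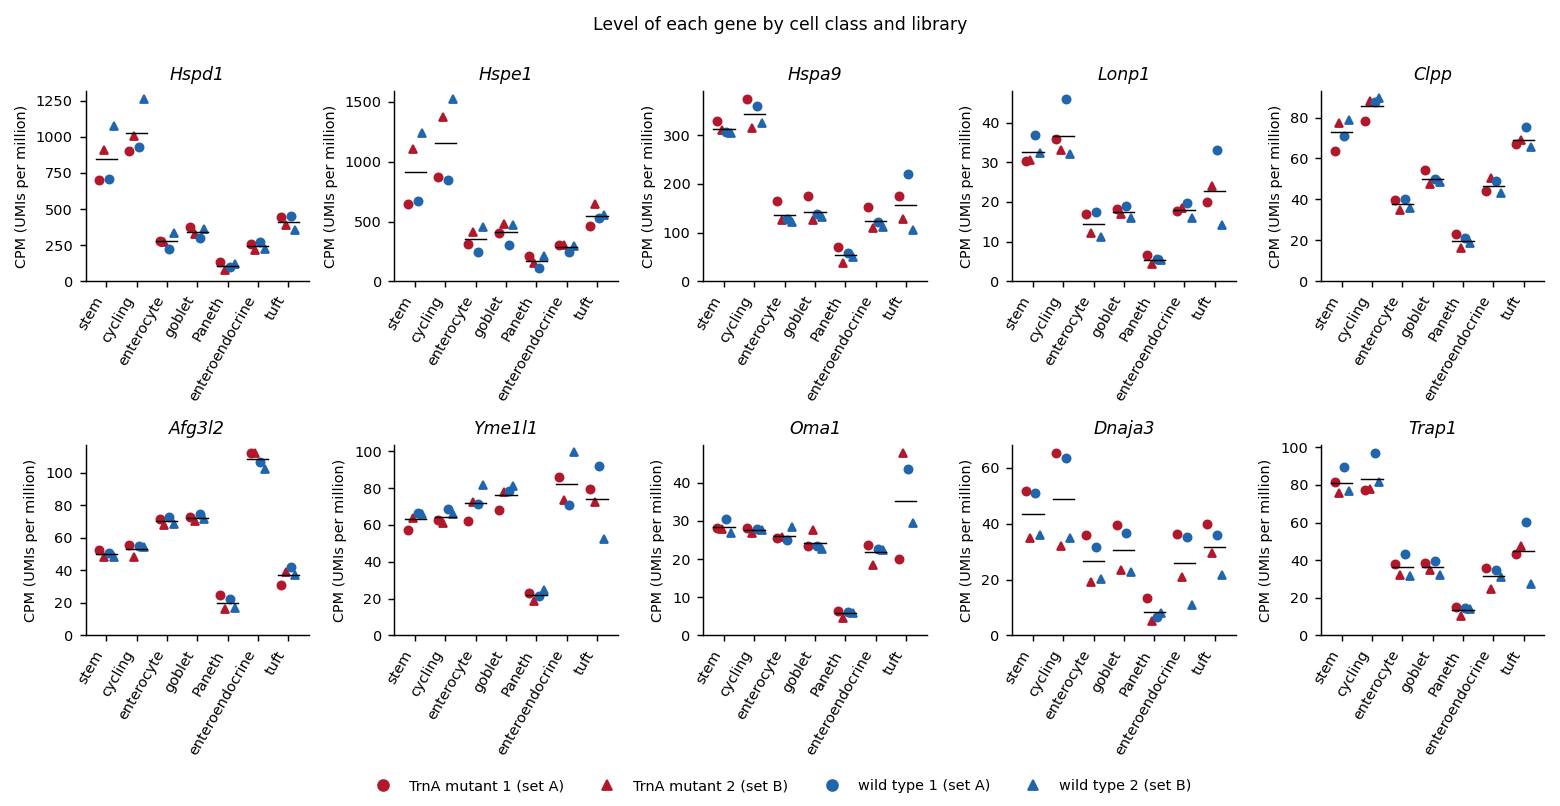
Level of each of the 10 genes in CPM (vertical axis) by cell class, with 1 point per library (red: mutants, blue: wild types; circles: set A, triangles: set B) and a bar at the mean of the 4 libraries. Hspd1 is highest in cycling and stem cells, while Afg3l2 has its highest CPM in enteroendocrine cells, at 108 on average, a rank that did not hold against enterocytes with TMM normalization.

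Of the inner membrane proteases, Afg3l2 and Yme1l1 had another order of CPM. Oma1 was highest in tuft (35.2 ± 12.9 CPM), stem (28.3 ± 1.48) and cycling cells (27.6 ± 0.57), with overlap between neighbouring classes down to enteroendocrine cells. Afg3l2, a subunit of the m-AAA protease, had its highest CPM in enteroendocrine cells, at 112 and 112 CPM in the mutants and 106 and 102 CPM in the wild types, above every other class in each library. Goblet cells (72.2 ± 1.95 CPM) and enterocytes (70.2 ± 2.49) followed and overlapped, then cycling cells (53.2 ± 3.28) and stem cells (49.8 ± 2.12), which also overlapped, then tuft cells (37.2 ± 4.74). With TMM normalization enterocytes were not below enteroendocrine cells (enterocyte to enteroendocrine log2 ratio 0.05, SE 0.07; edgeR quasi-likelihood test, adjusted p = 0.545). Yme1l1, the i-AAA protease, differed only 1.30-fold between its highest and lowest class and Oma1 1.61-fold, Paneth cells left out. Paneth cells as a class had the lowest mean CPM of every one of the 10 genes. This class joined 2 unlike clusters, c14 of 860 cells and c22 of 153 cells, of which 140 came from wild type 2. Pooled Hspd1 was at 90.0 CPM in c14 but at 393 CPM in c22, above the enterocyte mean of 278 CPM. Wild type 1 had only 44 Paneth cells. Paneth markers, mostly defensins, summed to 49716 and 106692 CPM of all epithelial UMIs in the mutants and 30462 and 85844 CPM in the wild types. On the scale with TMM normalization the 10 genes in Paneth cells lay between -0.50 and 0.19 (log2) of the mean of the other classes.

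In 1 fit over the 7 classes and 4 libraries (edgeR quasi-likelihood test, library as a block, Benjamini-Hochberg adjustment over 15125 genes), 8 of the 10 genes were higher and 1 lower in cycling cells than in the mean of the other classes, where 36.2% of all genes were higher and 30.5% lower. The largest of these were Hspd1 (log2 ratio 1.58, SE 0.08, adjusted p = 9.03e-16) and Hspe1 (1.38, SE 0.09, adjusted p = 2.9e-14), and Afg3l2 was the gene that was lower (-0.13, SE 0.05, adjusted p = 0.0175). In stem cells 7 were higher and 2 lower, against 35.2% and 29.6% of all genes. In enteroendocrine cells 8 of the 10 were lower, against 33.2% of all genes, and 1, Afg3l2, was higher (0.57, SE 0.06, adjusted p = 8.92e-10), against 31.7%. Hspe1 had the largest difference there (-1.40, SE 0.11, adjusted p = 5.97e-12). Tuft cells had 6 lower and 0 higher (22% and 15.7% of all genes), with Afg3l2 at -1.14 (SE 0.09, adjusted p = 3.9e-11). Enterocytes had 3 higher and 4 lower, against 38.1% and 38.9% of all genes, and the 3 higher were Afg3l2 (0.62), Oma1 (0.45) and Yme1l1 (0.42). Goblet cells had 2 higher, Afg3l2 and Yme1l1, and 5 lower, against 27.6% and 25.9%. Paneth cells had 1 higher, Clpp, and 2 lower, Hspd1 and Oma1, against 23.1% and 20.1%. These ratios are with TMM normalization, and some differ from the order of CPM. In CPM enterocytes ranked 4 of the 7 classes for Oma1 (26.2) and for Yme1l1 (71.9), and Paneth cells had the lowest mean of Clpp (19.8).

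Within a library the ratio of Hspd1 to Afg3l2 UMIs was not the same in all classes. It lay between 15.7 and 22.9 in crypt cells, between 3.05 and 4.93 in enterocytes and between 1.96 and 2.55 in enteroendocrine cells. The part of background RNA shared by all cells in these levels was not tested.

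The main contrast over cell types set crypt cells, which divide, against enterocytes, the absorptive cells of the villus. Both classes came from every library and were compared within it. Hspd1 was at 856, 968, 854 and 1179 CPM in crypt cells and at 280, 272, 223 and 336 CPM in enterocytes of mutant 1, mutant 2, wild type 1 and wild type 2. The lowest crypt library was thus above the highest enterocyte library. The fitted log2 ratio was 1.52 (SE 0.06), or 2.87-fold (edgeR quasi-likelihood test with Benjamini-Hochberg adjustment, adjusted p = 4.19e-08). All 10 genes passed an adjusted p of 0.05, 7 of them higher and 3 lower in crypt cells, where 83.6% of the 13907 genes tested passed, 43.4% higher and 40.2% lower. The median log2 ratio was 0.87 for the 10 genes and 0.05 for all genes tested.

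Among the chaperones, Hspe1 was higher in crypt cells at a log2 ratio of 1.30 (SE 0.06), Hspa9 at 1.03 (SE 0.06), Trap1 at 0.91 (SE 0.06) and Dnaja3 at 0.54 (SE 0.06). Hspa9 was at 364, 314, 341 and 316 CPM in crypt cells and at 165, 127, 129 and 121 CPM in enterocytes, in the same order of libraries. Of the matrix proteases, Lonp1 was higher in crypt cells at 1.04 (SE 0.08), with 34.4, 32.0, 42.8 and 32.2 CPM in crypt cells and 16.9, 12.2, 17.3 and 11.2 CPM in enterocytes. Clpp was higher at 0.84 (SE 0.07), with 74.9, 83.7, 81.9 and 85.0 CPM in crypt cells and 39.6, 35.04, 40.0 and 36.0 CPM in enterocytes. These 2 proteases had no overlap between the classes.

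The 3 inner membrane proteases were lower in crypt cells. Afg3l2 was at 54.6, 48.3, 53.6 and 51.4 CPM in crypt cells and at 71.7, 68.0, 73.0 and 68.2 CPM in enterocytes, again without overlap, for a log2 ratio of -0.71 (SE 0.06; edgeR quasi-likelihood test, adjusted p = 2.59e-06). Yme1l1 was at 61.4, 62.0, 67.7 and 66.0 CPM in crypt cells and 62.3, 72.6, 71.2 and 81.5 CPM in enterocytes, lower in the crypt cells of each library, at -0.44 (SE 0.07, adjusted p = 2.53e-04 by the same test). Oma1, the stress-activated protease, was at 28.1, 27.2, 28.8 and 27.3 CPM in crypt cells and 25.6, 25.8, 24.9 and 28.4 CPM in enterocytes, and its fitted log2 ratio of -0.20 (SE 0.07, adjusted p = 0.0245 by the same test) has the opposite sign to the difference of CPM in 3 of the 4 libraries. Without normalization factors Oma1 was at 0.09 and with upper-quartile scaling at 0.02, and neither passed, so its direction depends on the scaling. Without normalization factors the median gene also moved to 0.33, with 7217 genes higher and 4427 lower in crypt cells against 6042 and 5588 as fitted here, while Afg3l2 remained lower at -0.43 and Yme1l1 at -0.16.

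**Figure D2:**
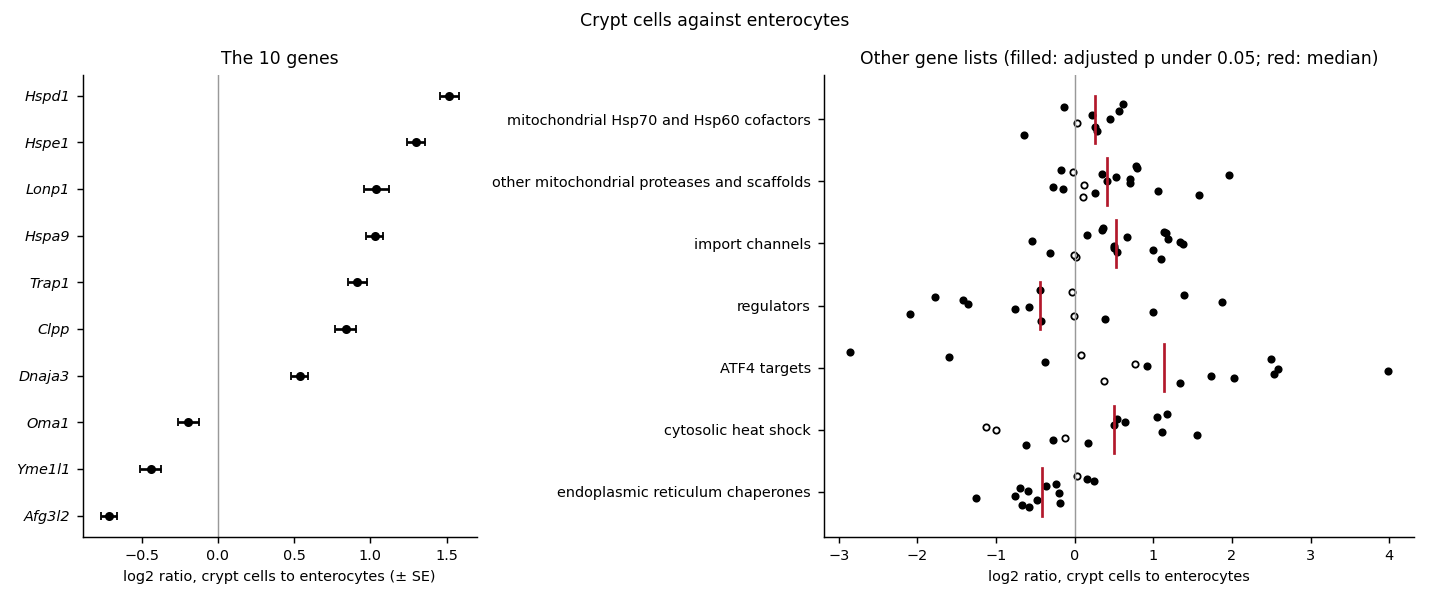
Left, log2 ratio of crypt cells to enterocytes (horizontal axis) for the 10 genes with its SE from the edgeR fit over 8 sums of UMIs. Right, the same ratio for the genes of the other lists, filled where the adjusted p was under 0.05, with a red bar at each list's median. On the left, 7 points lie right of 0, up to Hspd1 at 1.52, and 3 lie left of it, down to Afg3l2 at -0.71.

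The counts of the 7 other lists stand beside 43.4% higher and 40.2% lower in crypt cells among all genes tested, or 51.9% and 31.8% without normalization factors. The list of cofactors of the matrix chaperones and proteases holds 9 genes, an import receptor among them. Of these, 6 were higher and 2 lower in crypt cells (8 and 1 without normalization factors), with a median of 0.25. Clpx, the unfoldase that feeds Clpp, was lower at -0.64 (SE 0.07) although Clpp was higher, and Tomm70a, the import receptor, was higher at 0.61 (SE 0.07). Grpel1, the nucleotide exchange factor of Hspa9, was higher at 0.46 (SE 0.05) and Hscb, a J-protein of iron-sulfur cluster assembly, at 0.56 (SE 0.07). Of 17 other mitochondrial proteases and scaffolds, 11 were higher and 3 lower (14 and 0 without normalization factors), with a median of 0.41. The presequence-degrading protease Pitrm1 (1.97, SE 0.11), the intermembrane space protease Htra2 (1.07, SE 0.08), Stoml2 (0.80, SE 0.05) and the prohibitin Phb (0.71, SE 0.05), which scaffolds inner membrane proteases, were all higher in crypt cells.

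The import channel list holds 18 genes of protein import, among them small Tim proteins that are not channel subunits. Of these, 14 were higher and 2 lower in crypt cells (16 and 1 without normalization factors), with a median of 0.52. Timm50 was at 1.38 (SE 0.06), Timm8a1 at 1.34 (SE 0.06), Timm9 at 1.19 (SE 0.06) and the channel protein Tomm40 at 1.16 (SE 0.05). Of 14 regulators of stress responses, 4 were higher and 8 lower (6 and 6 without normalization factors), with a median of -0.44. The heat shock factor Hsf1 was higher at 1.39 (SE 0.10), while Ddit3, which encodes CHOP, was lower at -2.09 (SE 0.12), Esrra at -1.42 (SE 0.06) and Eif2ak3, the kinase PERK, at -1.35 (SE 0.07). Targets of ATF4 included 8 of 14 tested that were higher and 3 that were lower (9 and 2 without normalization factors), with a median of 1.13. Higher were the folate and serine enzymes Phgdh (3.98, SE 0.24), Mthfd2 (2.54, SE 0.13) and Shmt2 (2.50, SE 0.09), and lower was the amino acid transporter subunit Slc3a2 (-1.60, SE 0.11).

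Cytosolic heat shock genes had 8 of 13 tested higher and 2 lower (8 and 1 without normalization factors), among them Hsp90aa1 (1.55, SE 0.07), its cochaperone Stip1 (1.18, SE 0.05), Hsp90ab1 (1.11, SE 0.07) and Hsph1 (1.05, SE 0.09), with a median of 0.50. Chaperones of the endoplasmic reticulum had 2 of 14 higher and 11 lower (3 and 7 without normalization factors) and a median of -0.42, beside the same shares of all genes. Dnajb9 was at -1.25 (SE 0.07), Dnajc3 at -0.76 (SE 0.05), Canx at -0.67 (SE 0.05) and Hspa5, the endoplasmic reticulum Hsp70, at -0.59 (SE 0.05). All adjusted p-values of the genes named in these lists were below 0.05 in the edgeR quasi-likelihood test.

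The sizes of these ratios depend on the clustering, which sets both classes. With a coarser clustering (Leiden resolution 0.5) Hspd1 was at 2.68 and with variable genes centred by library at 2.77, against 1.52 here. The enterocyte class also had fewer UMIs per cell in every library, with medians of 11592, 12453, 25145 and 14069.5 UMIs in crypt cells and 3142, 4304, 3910 and 3441.5 UMIs in enterocytes. With every cell thinned to 3000 UMIs and shallower cells left out, Hspd1 was at 1.78 and Afg3l2 at -0.87, and all 10 genes passed.

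Levels also differed from cluster to cluster. Over the 21 epithelial clusters of at least 200 cells, pooled Hspd1 ran from 47.8 CPM in the goblet cluster c9, led by genes such as Zg16, Fcgbp and Muc2, to 1086 CPM in the unnamed cluster c2, a 22.7-fold range. The 10 leading genes of c2 include Mcm2, Mcm3, Mcm6 and Mcm7, of the replicative helicase, and the haemoglobin genes Hbb-bs and Hbb-bt, and 1626 of its 2466 cells came from mutant 1. The range was 22.7-fold for Hspe1, 17.1-fold for Hspa9, 16.3-fold for Trap1 and 4.79-fold for Yme1l1, and these ranges run across classes. Among the enterocyte clusters alone Yme1l1 lay between 63.7 and 94.8 CPM.

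The goblet clusters show this gradient within 1 lineage. In c12, led by Dll1 and Atoh1, which mark cells entering the secretory lineage, Hspd1 was at 608 and 614 CPM in the mutants and 619 and 641 CPM in the wild types. In c1, led by Agr2 and Guca2a, it was at 262 and 271 CPM in the mutants and 251 and 280 CPM in the wild types. In c9 it was at 73.4 and 42.3 CPM in the mutants and 38.6 and 37.0 CPM in the wild types. The 3 clusters did not overlap for Hspd1 in any library. Pooled Afg3l2 rose instead, from 63.5 CPM in c12 to 74.9 CPM in c1 and 84.3 CPM in c9. Its libraries lay between 62.1 and 64.7 CPM in c12, between 72.3 and 77.0 CPM in c1 and between 70.9 and 93.5 CPM in c9. The cells of c9 had a median depth of 0.372 of their library's median, that of c1 1.09 and that of c12 1.46.

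Enterocyte clusters separated likewise. Hspd1 was at 361 and 417 CPM in the mutants and 295 and 560 CPM in the wild types in c8, which is led by Reg1 and Il18, and at 360 and 417 CPM in the mutants and 342 and 484 CPM in the wild types in c11, led by Fabp6. In c0, led by Slc5a12 and Xdh, it was at 152 and 43.7 CPM in the mutants and 62.9 and 46.4 CPM in the wild types. Here mutant 1 stands above the other 3 libraries, as it does in c10, where Hspd1 was at 132 and 64.8 CPM in the mutants and 41.9 and 64.2 CPM in the wild types. The cells of c0 had 0.221 of their library's median depth and 19.1% mitochondrial UMIs, against 1.46 and 6.15% in c8. In c16, led by Fabp1 and Fabp2, Hspd1 was also low, at 80.4 CPM in mutant 1, 58.4 CPM in mutant 2 and 73.1 CPM in wild type 2, while the depth was 1.14 of the library median and 9.16% of UMIs were mitochondrial. Wild type 1 had fewer than 50 cells in that cluster.

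**Figure D3:**
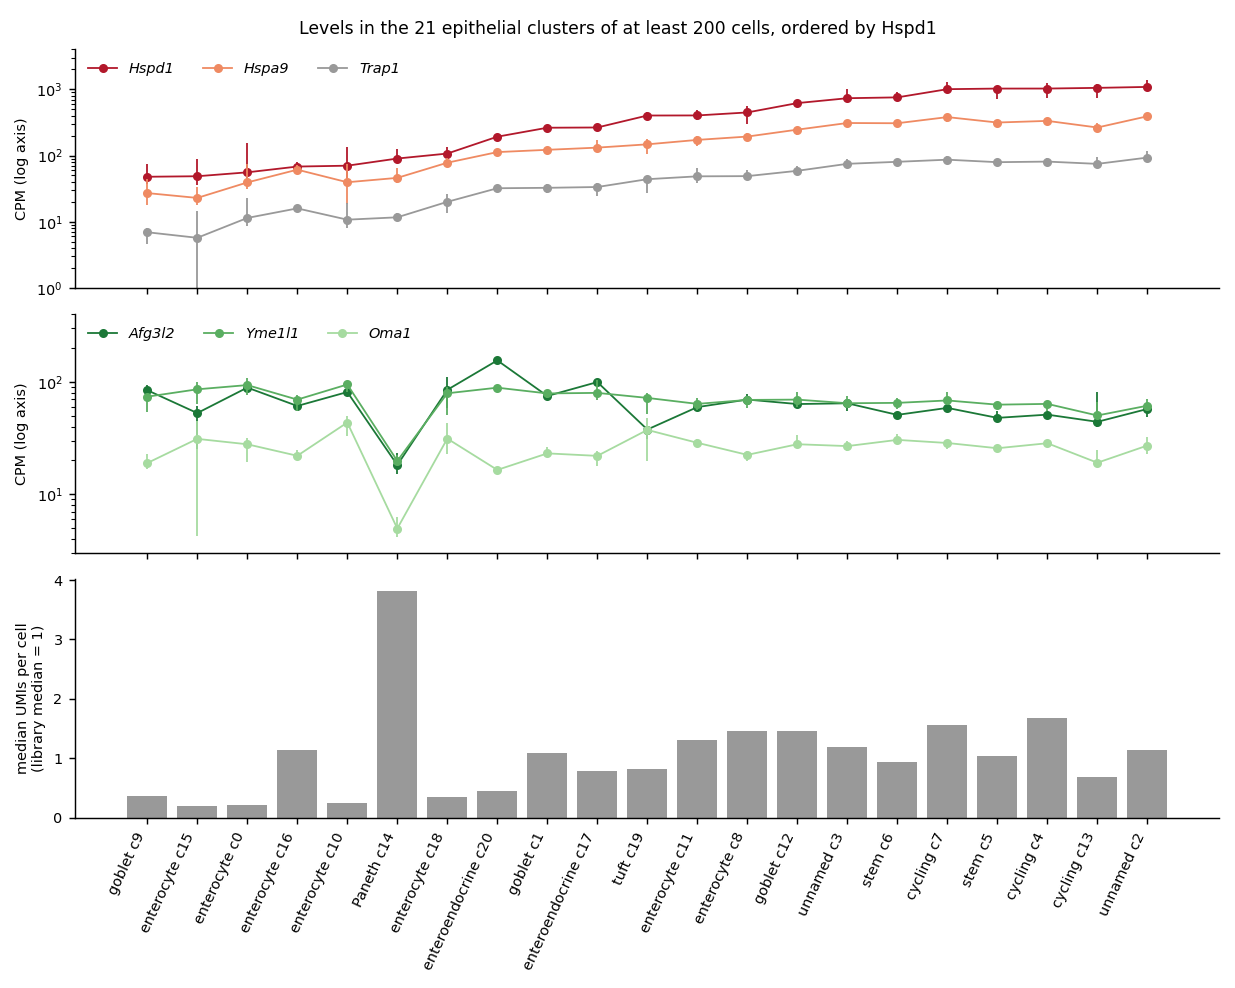
Levels in CPM (log axes) of Hspd1, Hspa9 and Trap1 (top) and of Afg3l2, Yme1l1 and Oma1 (middle) in the 21 epithelial clusters of at least 200 cells, ordered by pooled Hspd1, with vertical lines spanning the libraries that have at least 50 cells there, and median UMIs per cell relative to the library's median (bottom); the Trap1 line of c15 reaches down to 0 CPM, off the log axis. Hspd1 runs from 47.8 CPM in goblet cluster c9 to 1086 CPM in cluster c2, while low levels occur both in shallow clusters and in c16, whose relative depth is 1.14.

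The co-variation of the 10 genes over the 28 sums of 7 classes by 4 libraries, centred within libraries, is given as a description. These sums share libraries, so they are not independent. Hspd1 had a Pearson r of 0.989 with Hspe1, 0.984 with Hspa9 and 0.977 with Trap1, but 0.288 with Afg3l2. Yme1l1 had 0.883 with Oma1 and 0.810 with Afg3l2. Oma1 also had 0.875 with Dnaja3, 0.839 with Lonp1, 0.838 with Clpp and 0.743 with Hspd1, against 0.611 with Afg3l2. Over 6597 genes, those most like Hspd1 were C1qbp (0.991), a matrix protein, Atad3a (0.990), an inner membrane ATPase, and Hspe1 itself, and those most like Hspe1 were Hspd1, C1qbp and 1190007I07Rik. Hspa9 and Trap1 were most like each other (0.987), followed for Hspa9 by Atad3a and Hspd1 and for Trap1 by Atad3a and Ndufaf6. Clpp was most like Tcp1 (0.994), Fkbp4 and Cct6a, of which Tcp1 and Cct6a are subunits of the cytosolic chaperonin, and Lonp1 was most like Cct8 of the same chaperonin, Snrpd2 and Sf3b4. Dnaja3 was most like Sumo3, Plagl2 and Ccdc58. Afg3l2 was most like Mapkapk2 (0.968), Grb2 and Rassf3, Yme1l1 like Dcun1d1 (0.970), Becn1 and Zfx, and Oma1 like Krcc1 (0.973), Upf3a and Ube2l3.

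The question of the study's design is whether the TrnA mutation changes the epithelium. For these 10 genes no genotype difference was detected. In all epithelial cells Hspd1 was at 637 and 549 CPM in the mutants and 587 and 683 CPM in the wild types. Hspe1 was at 632 and 750 CPM in the mutants and 564 and 845 CPM in the wild types. The genotypes overlapped for both genes, with the mutants between the wild types for Hspe1. Hspa9 was at 279 and 193 CPM in the mutants and 251 and 199 CPM in the wild types, Lonp1 at 25.6 and 19.8 CPM in the mutants and 31.3 and 20.5 CPM in the wild types, and Clpp at 62.8 and 55.4 CPM in the mutants and 65.4 and 57.9 CPM in the wild types.

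The fitted log2 ratios of mutant to wild type in all epithelial cells ran from -0.07 for Lonp1 (SE 0.22) to 0.18 for Hspa9 (SE 0.20), with Hspd1 at 0.01 (SE 0.21) and Hspe1 at 0.08 (SE 0.31). The median was 0.04 for the 10 genes and -0.0028 for all genes. By the edgeR quasi-likelihood test 0 of the 10 genes passed, and 0 had an unadjusted p under 0.05, where 0% of the 16736 genes passed (0 genes, with 106 at an unadjusted p under 0.05). DESeq2 called 7 genes, or 0.0289%, and 0 of the 10. With the set as a replicate block 27 genes passed, or 0.161%, and again 0 of the 10. The SEs of the 10 ratios ran from 0.15 to 0.40 without the block, which bounds what 2 libraries per genotype can show.

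In crypt cells the ratios ran from -0.08 to 0.13 and 0 of the 10 genes passed, where 0% of 14327 genes passed (106 at an unadjusted p under 0.05; DESeq2 0). With the set as a replicate block 141 genes, or 0.984%, passed and 0 of the 10. In enterocytes the ratios ran from -0.13 to 0.26 and 0 of the 10 passed, where 0% of 12769 genes passed (138 at an unadjusted p under 0.05; DESeq2 0), and the block gave 0% too. The ratios ran from -0.12 to 0.19 in goblet cells and from -0.10 to 0.27 in enteroendocrine cells, with 0 of the 10 passing in either class, without the block (0% of 13069 and of 11147 genes) or with it (0.337% and 0.0538%). The genotype ratio in crypt cells minus that in enterocytes lay between -0.15 and 0.11, and 0 of the 10 passed that test, where 0% of 14733 genes passed (266 at an unadjusted p under 0.05).

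The largest ratio in enterocytes was that of Hspa9. It was at 165 and 127 CPM in the mutants and 129 and 121 CPM in the wild types, where mutant 2 lies between the wild types. After TMM normalization the values were 159 and 135 CPM in the mutants and 124 and 122 CPM in the wild types, so that the genotypes did not overlap. The log2 ratio was 0.26 (SE 0.18; edgeR quasi-likelihood test, adjusted p = 0.9999), and 0.25 (SE 0.12, adjusted p = 0.836) with the set as a replicate block. The cluster mix of enterocytes differed as well: c8, with 193 CPM of Hspa9 against 39.2 CPM in c0, made up 16.5% and 20.6% of the enterocytes in the mutants and 6.996% and 15.8% in the wild types. Within c8 Hspa9 was at 222 and 184 CPM in the mutants and 178 and 198 CPM in the wild types, so that set B had the lower value in the mutant. The part of the cluster mix in the ratio was not tested. The ratio was 0.36 within set A and 0.15 within set B, and under the other settings it ranged from 0.14 without mutant 1 to 0.76 with cells thinned to 3000 UMIs.

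The ratios were also taken within each set. In all epithelial cells 4 of the 10 genes had the same sign in both sets, in crypt cells 3 and in enterocytes 3. The share of all genes with the same sign was not taken, so these counts are a description only. The ratio of Hspd1 was 0.22 in set A against -0.18 in set B over all epithelial cells, with 0.10 and -0.21 in crypt cells and 0.33 and -0.23 in enterocytes. Hspe1 was at 0.26 and -0.04 in all epithelial cells. Hspa9 was positive in both sets in all epithelial cells (0.25 for set A, 0.09 for set B) and crypt cells (0.19 for set A, 0.07 for set B), and Yme1l1 was negative in both (-0.08 and -0.02, and -0.05 and -0.01). With 1 library per genotype and set, the difference between the sets was not tested.

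**Figure D4:**
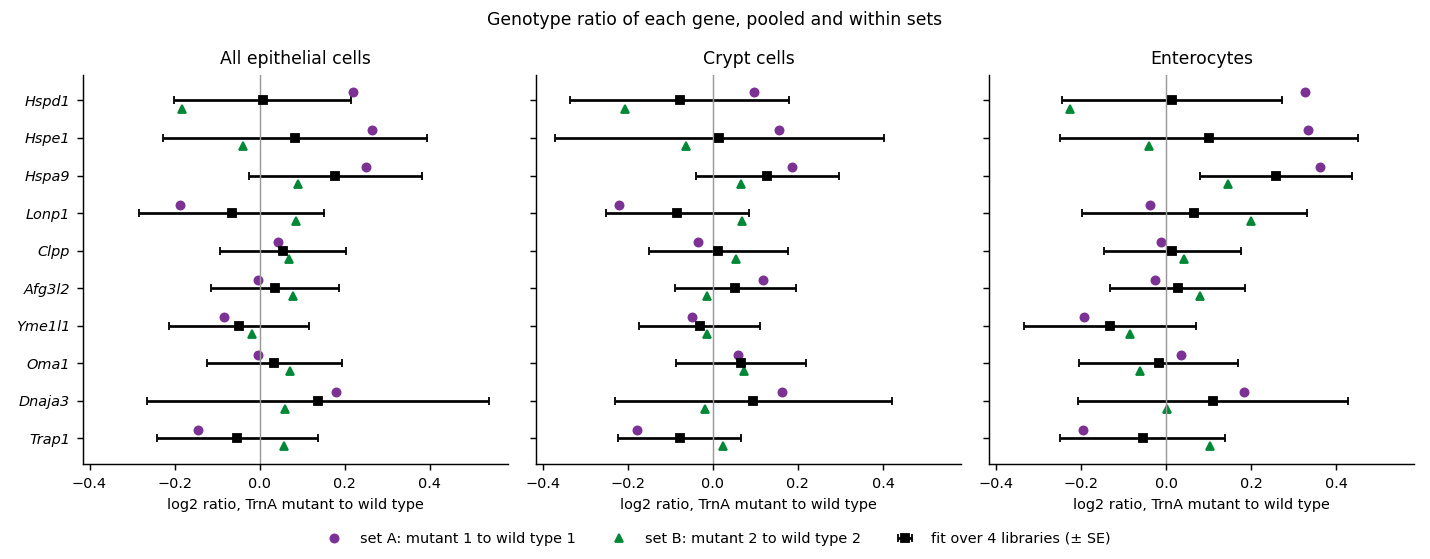
Log2 ratio of mutant to wild type (horizontal axis) for the 10 genes in all epithelial cells, crypt cells and enterocytes. Black squares are the edgeR fit over 4 libraries with its SE, purple circles the ratio within set A and green triangles that within set B. The fitted ratios lie between -0.13 and 0.26, and for Hspd1 the sets lie on opposite sides of 0 in each panel.

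Some differences lay between the sets rather than the genotypes. Dnaja3 was at 51.8 CPM in mutant 1 against 24.0 CPM in mutant 2, and at 49.2 CPM in wild type 1 against 25.3 CPM in wild type 2, so that both genotypes were higher in set A, by 2.16-fold in the mutants and 1.94-fold in the wild types. Of 6324 genes, 105, or 1.66%, differed as far in both genotypes. Dnaja3 shares 160 exon bases with Vasn on the same strand, so its reads there are uncertain. It also shares 153 exon bases with Coro7 on the opposite strand. The part of these overlaps in the difference between the sets was not tested. In crypt cells Dnaja3 was at 62.1 and 33.0 CPM in the mutants and 59.2 and 35.3 CPM in the wild types, and its genotype ratio of 0.09 has an SE of 0.33, against 0.12 with the set as a replicate block.

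The balance of Hspe1 to Hspd1 also went with the set. Per UMI of Hspd1 there were 0.992 UMIs of Hspe1 in mutant 1 and 1.37 in mutant 2, and 0.962 in wild type 1 and 1.24 in wild type 2. The higher ratio of set B held in each of the 7 classes, for both genotypes. The ratio is one of transcripts, whose capture efficiency was not measured, and it gives no balance of proteins. Cell Ranger version, stated sex and library cannot be told apart between the sets.

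The other lists place these values. In all epithelial cells 0 genes of the 7 lists passed the edgeR quasi-likelihood test for genotype. The import channel list had 18 of 18 ratios above 0 (10 of 18 without normalization factors) and a median of 0.14, against -0.0028 for all genes. Timm44, which tethers Hspa9 to the channel, was at 91.4 and 75.4 CPM in the mutants and 72.1 and 77.4 CPM in the wild types (ratio 0.26, SE 0.17), and Tomm22 at 291 and 185 CPM in the mutants and 234 and 181 CPM in the wild types (0.31, SE 0.23). Among the other proteases and scaffolds Stoml2 was at 134 and 92.8 CPM in the mutants and 106 and 85.8 CPM in the wild types (0.35, SE 0.19). The medians were 0.05 for the cofactors, 0.05 for the other proteases and scaffolds, 0.0065 for the regulators, 0.36 for the ATF4 targets, -0.27 for cytosolic heat shock and -0.0056 for the endoplasmic reticulum chaperones.

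Outside the mitochondrial lists some genes passed once the set was taken as a replicate block. In crypt cells Atf5, a transcription factor known to drive the mitochondrial unfolded protein response, was at 16.1 and 10.4 CPM in the mutants and 9.53 and 2.82 CPM in the wild types, with no overlap, and rose at a log2 ratio of 1.34 (SE 0.17; edgeR quasi-likelihood test with the block, adjusted p = 1.85e-11). Cebpb rose too in that fit (0.74, SE 0.12, adjusted p = 1.01e-06 by the same test). Its levels were 94.4 and 59.2 CPM in the mutants and 37.7 and 59.2 CPM in the wild types, with a ratio of 1.42 within set A and 0.08 within set B. Of 15 ATF4 targets tested 7 rose and 0 fell, where 0.782% of all genes rose and 0.202% fell, among them the serine enzymes Psat1, at 21.5 and 20.3 CPM in the mutants and 13.1 and 13.2 CPM in the wild types, and Psph, at 28.9 and 28.3 CPM in the mutants and 19.7 and 18.3 CPM in the wild types. None of these passed without the block, as given above. With 2 libraries per genotype the block leaves little residual spread to measure for a single gene, so these p-values rest largely on spread pooled over genes. For Cebpb the SE of 0.12 does not reflect the distance between its ratios in the sets. The same holds for Atf5, whose SE of 0.17 stands beside crypt ratios of 0.85 within set A and 1.95 within set B. In all epithelial cells Atf5 overlapped between the genotypes. There it was at 16.5 and 8.62 CPM in the mutants and 11.98 and 2.57 CPM in the wild types. The crypt fit with the block called 0 of 9 genes of the cofactor list. It also called 0 of 17 other proteases and scaffolds and 0 of 18 genes of the import channel list.

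Cytosolic heat shock genes had 4 of 12 tested lower in mutant crypt cells with the block and 0 higher, beside 0.202% and 0.782% of all genes. Hsph1 was at 34.3 and 62.6 CPM in the mutants and 46.8 and 142 CPM in the wild types, and Hspa1b at 0.32 and 0.47 CPM in the mutants and 0.65 and 8.91 CPM in the wild types. Wild type 2 stands apart in both. The summed cytosolic list was at 5140 and 6338 CPM in the mutant crypt cells and 5682 and 7841 CPM in the wild type ones. Wild type 2 also had the highest crypt levels of Hspd1, at 856 and 968 CPM in the mutants and 854 and 1179 CPM in the wild types, and of Hspe1, at 821 and 1274 CPM in the mutants and 786 and 1403 CPM in the wild types. Without wild type 2 the crypt ratio of Hspd1 was 0.25 and that of Hspe1 0.57. That fit leaves mutant 2 without its partner of set B, so these ratios include the difference between the sets. Within set A the crypt ratio was 0.10 for Hspd1 and 0.16 for Hspe1, and within set B -0.21 and -0.06. The part of heat shock in wild type 2 in these values was not tested.

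**Figure D5:**
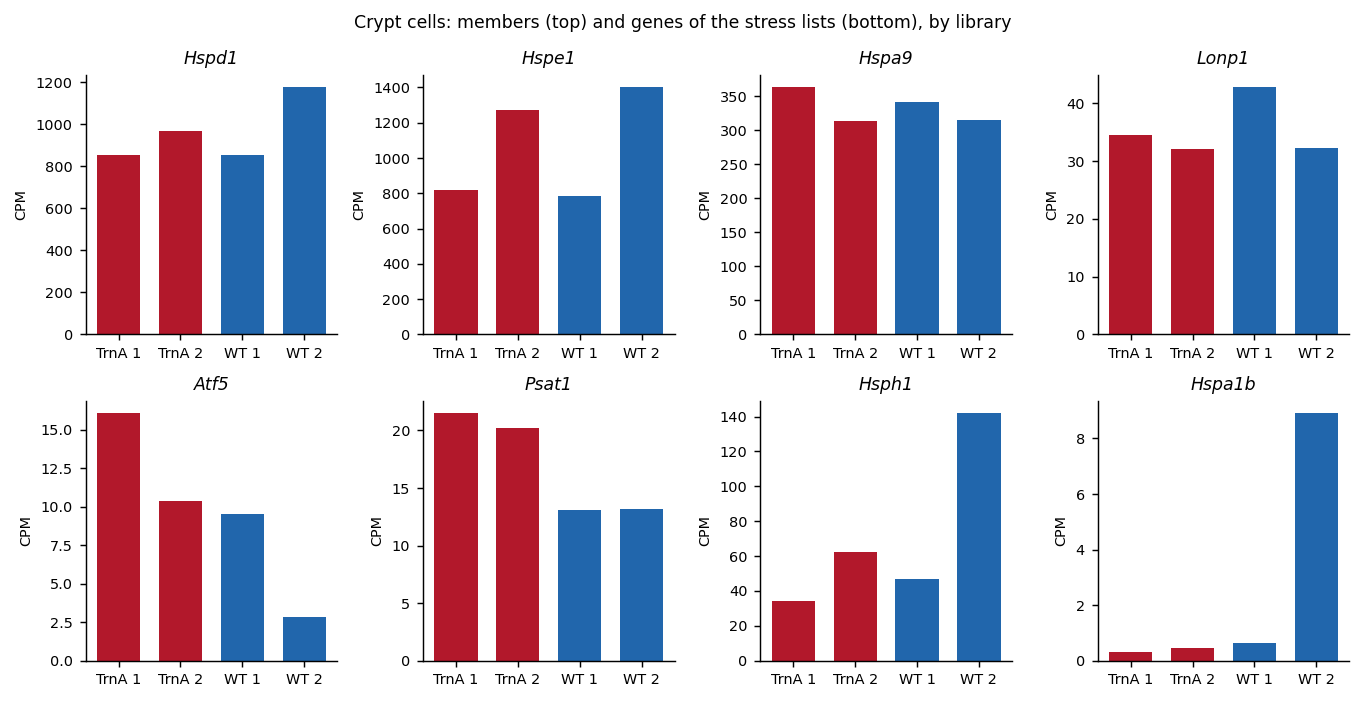
CPM in crypt cells of each library (red: mutants, blue: wild types) for Hspd1, Hspe1, Hspa9 and Lonp1 (top) and Atf5, Psat1, Hsph1 and Hspa1b (bottom). Hspd1 and Hspe1 are highest in wild type 2, at 1179 and 1403 CPM, as is Hspa1b at 8.91 CPM, while Atf5 is higher in both mutants than in either wild type.

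Erythroid markers were higher in both mutants, a difference that was not tested. The 4 markers summed to 24.6 and 16.3 CPM in the mutants and 3.27 and 0.871 CPM in the wild types, in cells sorted with a TER-119 stain. Within classes Hba-a1, 1 of these markers, overlapped between the genotypes. It was at 1.24 and 0.35 CPM in mutant and 1.42 and 0.21 CPM in wild type crypt cells, and at 0.18 and 12.1 CPM in mutant and 0.80 and 0.64 CPM in wild type enterocytes. The T cell markers summed to 5.48 and 6.70 CPM in the mutants and 5.52 and 3.89 CPM in the wild types. Their part in the levels of the 10 genes was not tested.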

How the data were processed

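Per the labels' protocols, small intestinal crypts and villi were released, digested to single cells and sorted, and libraries were made with a 10x Chromium 3′ kit. The deposited values are raw UMI counts per gene and barcode, not normalized. The Cell Ranger version, 7.0.0 or 7.1.0, and build mm10 stand in the submitters' processing notes, while counting of introns is not stated there. The 10 genes and the gene lists were chosen with earlier results of these data known.

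From 44576 barcodes, 29796 cells passed the limits of 500 genes and 1000 UMIs as minimum, under 30% mitochondrial UMIs and no doublet call (scrublet in scanpy 1.11.5, threshold set to 0.8% of barcodes per 1000 barcodes). Counts were scaled to 10000 per cell. With 2000 variable genes without the 10 genes, 50 principal components, 15 neighbours and Leiden resolution 1, 25 clusters were found. A cluster was named where at least 3 marker genes stood among its 50 leading genes. It stayed unnamed where another class had more markers among its 10 leading genes, or where its cells were shallow and its own markers were missing there. Such a conflict, from haemoglobin genes, kept c2 from being named cycling. UMIs were summed per library and class and tested with edgeR 4.0.16 (quasi-likelihood, TMM, filterByExpr, Benjamini-Hochberg adjustment over all genes tested, called at adjusted p under 0.05), after a check of the code on simulated data. Class comparisons had library as a block. DESeq2 1.42.0 was an alternative.

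The sets are known from the titles and Cell Ranger versions. The difference between sets had a Pearson r of 0.735 between the genotypes over 6324 genes, and the set was tried as a replicate block. From each list, up to 4 genes with the smallest p were named for genotype in all epithelial cells and for crypt cells against enterocytes, and for each of the 10 genes the 3 genes most like it, among genes with a mean of at least 20 CPM. UMI counts limit precision for rare classes, where Lonp1 had as few as 11 UMIs in tuft cells.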

Additional observations from a re-analysis of the deposited data

How the results depend on the processing

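With 2 libraries per genotype, 0 of the 10 genes passed for genotype in all epithelial cells, crypt cells or enterocytes under any alternative run, the replicate block included, and for crypt cells against enterocytes 9 or 10 passed. That block moved the count of all genes called from 0 to 27 in all epithelial cells and from 0 to 141 in crypt cells, against 0 in enterocytes, and called none of the 10. Uncalled genotype ratios (log2) near 0 changed sign often, and the cause was not tested. The signs changed without normalization factors, which moved the median gene to -0.12 in all epithelial cells, for Hspd1 -0.099, Hspe1 -0.028, Clpp -0.061, Afg3l2 -0.081 and Oma1 -0.084 in all epithelial cells, Hspe1 -0.063, Clpp -0.073, Afg3l2 -0.030 and Oma1 -0.018 in crypt cells, and Hspd1 -0.021, Clpp -0.026 and Afg3l2 -0.015 in enterocytes. With the same class mix in every library they changed for Hspd1 -0.11, Hspe1 -0.011, Clpp -0.057, Afg3l2 -0.028 and Oma1 -0.056 in all epithelial cells. With cells thinned to 3000 UMIs they changed for Lonp1 0.032, Afg3l2 -0.035 and Trap1 0.14 in all epithelial cells, Lonp1 0.036, Afg3l2 -0.056, Yme1l1 0.019 and Oma1 -0.037 in crypt cells, and Trap1 0.34 in enterocytes. Under 15% mitochondrial UMIs gave Hspd1 -0.032 in all epithelial cells and Afg3l2 -0.050, Oma1 0.016 and Trap1 0.17 in enterocytes, and no limit on mitochondrial UMIs gave Clpp -0.022 there. With no doublets left out, Hspd1 was -0.0023 in all epithelial cells, and Afg3l2 -0.099 and Trap1 0.18 in enterocytes. Upper-quartile normalization gave Hspd1 -0.018 in all epithelial cells. Centring by library gave Yme1l1 0.0052 in crypt cells and Afg3l2 -0.027 and Trap1 0.23 in enterocytes, and Leiden resolution 0.5 gave Afg3l2 -0.0045 and Trap1 0.039 in enterocytes. Without the cluster that has Hspe1 among its leading genes, an alternative chosen after seeing the data, Hspd1 was -0.020 in all epithelial cells, and Hspe1 -0.040 and Clpp -0.012 in crypt cells.

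Leaving out 1 library at a time spanned, in all epithelial cells, Hspd1 -0.16 to 0.21, Hspe1 -0.23 to 0.51, Hspa9 -0.010 to 0.35, Lonp1 -0.27 to 0.19, Yme1l1 -0.15 to 0.047, Oma1 -0.017 to 0.089, Dnaja3 -0.40 to 0.60 and Trap1 -0.21 to 0.14. In crypt cells it spanned Hspd1 -0.33 to 0.25, Hspe1 -0.39 to 0.57, Lonp1 -0.22 to 0.077, Clpp -0.12 to 0.14, Yme1l1 -0.087 to 0.025 and Dnaja3 -0.37 to 0.45. In enterocytes it spanned Hspd1 -0.28 to 0.39, Hspe1 -0.28 to 0.64, Lonp1 -0.19 to 0.37, Clpp -0.022 to 0.059, Afg3l2 -0.0097 to 0.069, Yme1l1 -0.33 to 0.044, Oma1 -0.13 to 0.12, Dnaja3 -0.31 to 0.45 and Trap1 -0.23 to 0.14. A genotype left with 1 library was assumed to vary like the other. Each of these fits also left 1 library without its partner of the same set, so the spans include the difference between the sets.

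For crypt cells against enterocytes, 9 of the 10 genes kept sign and call under every alternative run. The exception was Oma1, which reversed to 0.085 without normalization factors and to 0.017 with upper-quartile normalization and did not pass under 7 others: Leiden resolution 0.5, centring by library, no doublets left out, under 15% mitochondrial UMIs, no filter on low counts, and without mutant 2 (-0.18) or wild type 2 (-0.14).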

Other observations

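Of the 3 unnamed clusters, which belong to none of the 7 classes, c3 and c2 had high chaperone levels, while c23, of 134 cells, had a pooled Hspd1 of 81.6 CPM. In c3, led by Gsdmc4, Gsdmc2 and Car4, Hspd1 was at 696 and 861 CPM in the mutants and 666 and 994 CPM in the wild types, and Hspa9 at 320 and 290 CPM in the mutants and 313 and 276 CPM in the wild types. In c2, which was added to crypt cells as an alternative, Hspd1 was at 1007 and 1188 CPM in the mutants and 1074 and 1385 CPM in the wild types. In both clusters wild type 2 had the highest Hspd1. The cycling cluster c13, with Hspe1 among its 10 leading genes, had Hspe1 at 965 and 1648 CPM in the mutants and 857 and 1809 CPM in the wild types.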
